A study of Homo sapiens with 6 samples.

Results

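Solute carriers (SLC) are membrane proteins that move ions, sugars, amino acids, nucleosides, vitamins, metals and drugs across the plasma membrane and the membranes of organelles, by facilitated diffusion or by coupling to an ion gradient. They are sorted by sequence into numbered families, to which the organic anion transporters (SLCO) are added. In breast cancer cells they are known above all for the uptake of glucose, glutamine and essential amino acids, for the export of lactate and protons, and for the entry of drugs. The genes described here were all protein-coding rows whose GENCODE 29 symbol begins with SLC, with the mitochondrial SLC25 family left out, and whose mean level over the 6 libraries was at least 1 FPKM (fragments per kilobase of transcript, scaled to the size of the library). This rule kept 157 genes of 338 SLC rows, in a table of 65198 rows, and left 181 SLC rows under the level. The 157 genes came from 43 of 50 SLC families, 5 of them being genes with an SLC symbol that are not carriers, which left 152 carriers. Members were chosen by their mean level over all 6 libraries, which a high level in either group can lift over the line.

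The libraries came from derivatives of MDA-MB-231, an epithelial line from a human breast adenocarcinoma of the basal-like subtype, that were grown under 1 µg/ml doxycycline for 96 h. The shHOTAIR derivative (3 libraries) held a tetracycline-inducible hairpin RNA aimed at HOTAIR, a long non-coding RNA of the HOXC locus. The shCtrl derivative (3 libraries) held an inducible hairpin of scrambled sequence and received the same doxycycline. Each group is 1 derivative of the line, and the labels do not say whether it is a clone or a pool, so a difference between the derivatives that does not come from the hairpin cannot be told apart from one that does. In RNA of whole cultures, fewer cells with a transcript and less transcript per cell cannot be told apart either.

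HOTAIR was listed at 0, 0 and 0.0113 FPKM in shHOTAIR 1, 2 and 3, against 0, 0.0128 and 0.0132 FPKM in shCtrl 1, 2 and 3, too low to show a knockdown (exact two-sided permutation p = 0.4, with 0.1 the smallest that 3 against 3 allows, and limma adjusted p = 0.786 in a fit of 36141 genes). Depth is known only in relative terms: the FPKM worth of 1 fragment was 0.595 to 0.717 of that of shCtrl 1 in the shHOTAIR libraries and 0.812 to 1 in the shCtrl libraries, and a smaller value means a deeper library. All 5 markers of the line were present. VIM stood at 361 to 411 FPKM in shHOTAIR and 906 to 977 FPKM in shCtrl, and CD44 at 430.4 to 515 FPKM in shHOTAIR and 446 to 497 FPKM in shCtrl. The others were higher in shHOTAIR, EGFR at 149.9 to 165 FPKM against 70.4 to 80.9 FPKM in shCtrl, KRT8 at 197 to 263 FPKM against 130.2 to 151 FPKM in shCtrl, and KRT18 at 207 to 251 FPKM against 142 to 160.0 FPKM in shCtrl. Of the luminal markers ESR1, PGR, CDH1 and EPCAM stayed under 0.12 FPKM and ERBB2 stood at 17.3 to 25.5 FPKM. The summed level of 4 leukocyte markers was 16.4 to 19.8 FPKM in shHOTAIR and 21.4 to 22.4 FPKM in shCtrl, nearly all of it CD68, with CD3E at 0 in 4 of the 6 libraries. The sums were 4.38 to 5.57 FPKM in shHOTAIR and 2.55 to 3.32 FPKM in shCtrl for 4 fibroblast markers, with LUM at 0 in 1 library, and 0.160 to 0.495 FPKM in shHOTAIR and 0.226 to 0.437 FPKM in shCtrl for 3 endothelial markers, with VWF at 0 in 1 library. Their part in the results on carriers was not tested.

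The carriers spanned a wide range of levels. Of the 157 members 8 had a mean of at least 100 FPKM, 21 of at least 50 FPKM and 113 of at least 5 FPKM, and their median was 14.5 FPKM, against 20.6 FPKM for all protein-coding genes tested. The highest 6 were the glutamine and alanine carrier SLC38A2, the glucose carrier SLC2A1, the phosphate carrier SLC20A1, the amino acid carrier heavy chain SLC3A2, the choline-like carrier SLC44A2 and SLC43A3. At the edge of the rule, SLC26A1, SLC9A3 and SLC44A3 lay just inside with means of 1.02, 1.04 and 1.11 FPKM. SLC16A13, SLC26A7 and SLC16A4 lay just outside with means of 0.983, 0.910 and 0.884 FPKM. Of the 181 rows under the level 34 were at 0 in all 6 libraries, and 11 had a mean of at least 1 FPKM in a single group. For 8 members 1 group had a mean under 1 FPKM, shHOTAIR in 4 and shCtrl in 4, so they reached the level through the other group alone. SLC22A23, 1 of these 8, was called in the test, and since it had to be high in shHOTAIR to be a member its call supports nothing.

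Between shHOTAIR and shCtrl, 45 of the 157 members passed the test (limma on log2(FPKM + 1) over the 15934 genes that reached a mean of 1 FPKM, Benjamini-Hochberg adjusted p under 0.05). Of these 21 were higher in shHOTAIR and 24 lower, and without SLC22A23 the counts were 44 called and 20 higher. That is 28.7% of members, beside 23.8% of all genes tested, with 13.4% against 11.5% for rises and 15.3% against 12.4% for falls. Over the 11587 protein-coding genes tested the share was 28.7%, so the share of SLC genes called was that of protein-coding genes at large. The median log2 change was -0.04 for members and -0.03 for all genes tested. The groups did not overlap in 82 members, 52.2%, beside 43.0% of all genes and 49.7% of protein-coding genes, and they did not overlap in any of the 45 members that passed. Most shifts were modest: the median size of a called change was 0.50 on the log2 scale for members and 0.54 for all genes. SLCO4A1 and SLC22A23 were the members called with a log2 change of at least 1, against 499 of all genes. The profile of the members was steady within a group, with correlations of log2 levels of 0.991 to 0.995 between libraries of the same group and 0.962 to 0.970 between groups.

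**Figure D1:**
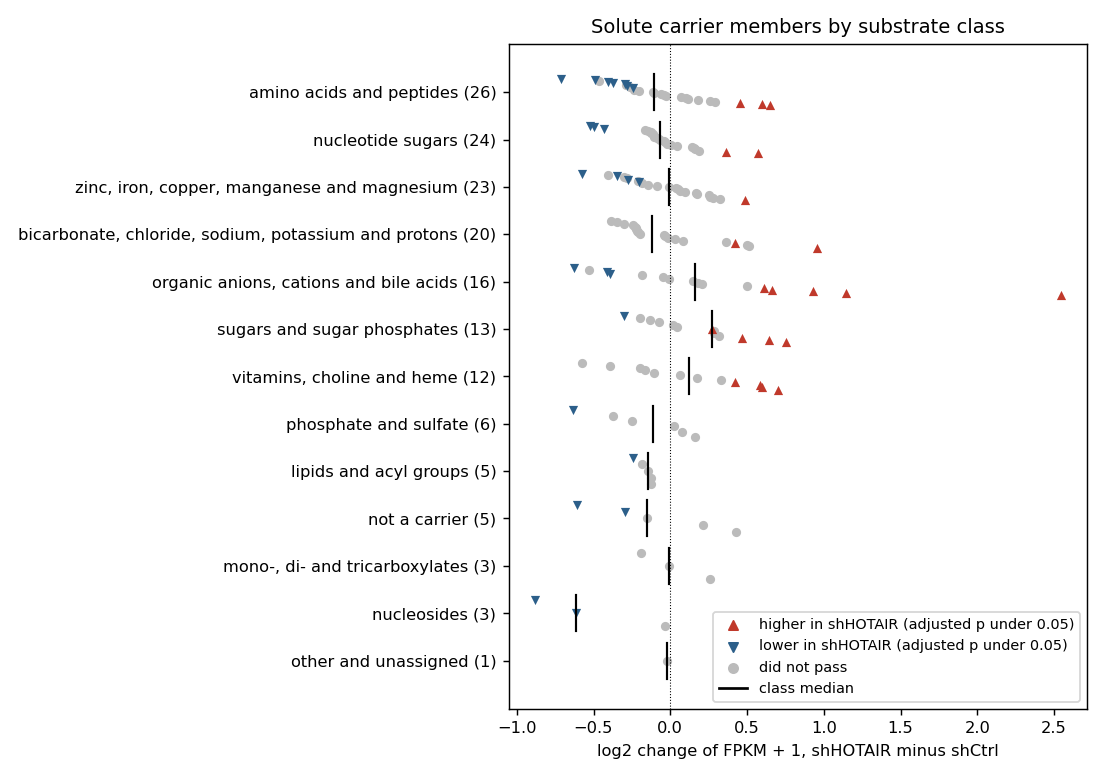
Log2 change of FPKM + 1, shHOTAIR minus shCtrl, for each of the 157 members, in rows by substrate class. Triangles are the 45 members past the limma threshold, grey points the other members, and the short line the median of each class, which was 0.27 for sugars and -0.61 for nucleosides.

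By substrate, among classes of at least 12 members, the largest shares called were those of amino acids and peptides (3 rose and 7 fell of 26, 38.5% called), organic anions, cations and bile acids (5 rose and 3 fell of 16, 8 called), sugars and sugar phosphates (4 rose and 1 fell of 13, 38.5% called) and vitamins, choline and heme (4 rose and none fell of 12, 33.3% called). Beside them stand 23.8% of all genes tested and 28.7% of protein-coding genes tested. The 5 rises of organic ion carriers include SLC22A23, whose call supports nothing. Metals had 1 rise and 4 falls among 23 members (21.7% called), nucleotide sugars 2 rises and 3 falls among 24 (20.8% called), and carriers of bicarbonate, chloride, sodium, potassium and protons 2 rises among 20. Nucleosides had 2 falls among 3 members, phosphate and sulfate 1 fall among 6, and lipids 1 fall among 5. None of the 3 carboxylate carriers passed, with 1 at an unadjusted p under 0.05 in limma.

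**Figure D2:**
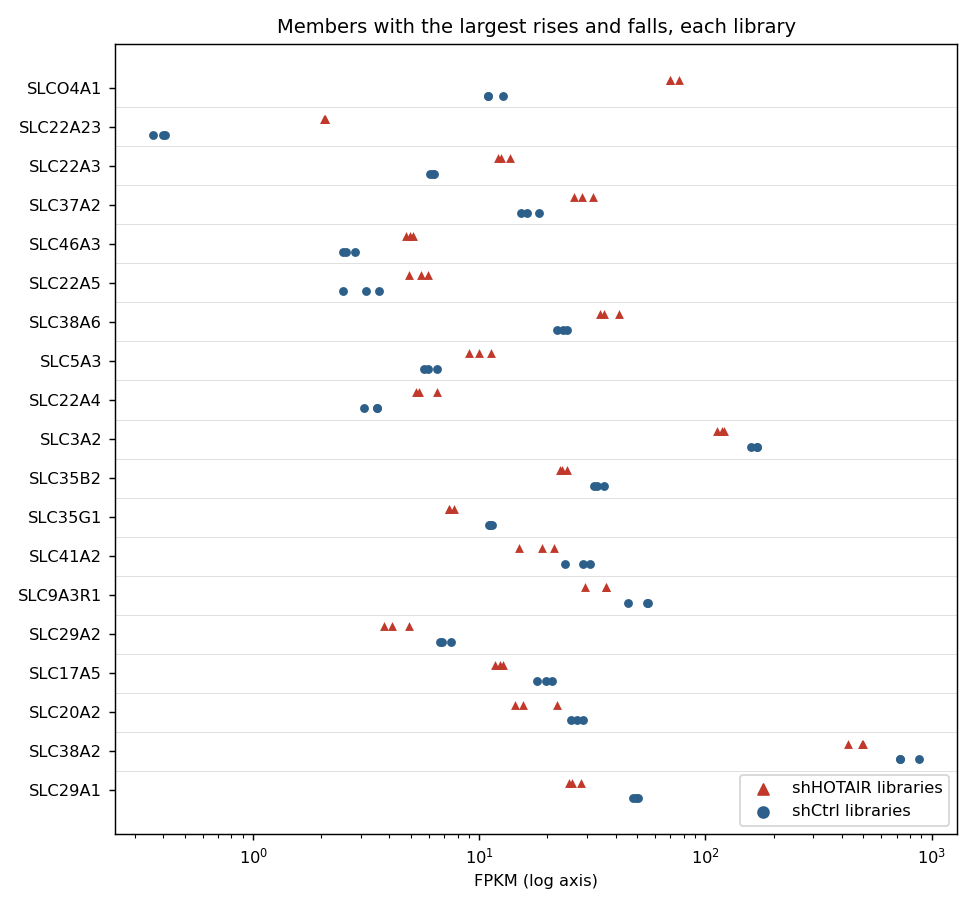
FPKM of each library on a log axis for 9 of the 10 members with the largest called rise and the 10 with the largest called fall. Red triangles are the 3 shHOTAIR libraries and blue circles the 3 shCtrl libraries. SLCO4A1 shows the widest gap, with 69.6 to 76.3 FPKM in shHOTAIR and 10.9 to 12.8 FPKM in shCtrl.

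Carriers of organic anions and cations held the largest rises. SLCO4A1 (chr20:62642445-62685785, plus strand, GRCh38), a sodium-independent organic anion transporter that carries thyroid hormone, had 69.6, 76.3 and 70.0 FPKM in shHOTAIR 1, 2 and 3, against 10.9, 10.9 and 12.8 FPKM in shCtrl 1, 2 and 3. Every shHOTAIR library lay far above every shCtrl library, and the means of 72.0 ± 3.74 FPKM in shHOTAIR and 11.5 ± 1.07 FPKM in shCtrl (SD, n = 3 each) stood in a ratio of 6.25. The log2 change was 2.55 (SE 0.0798, limma adjusted p = 0.0002), the largest of any member. Of its exon bases 8.54% are shared with SLCO4A1-AS1 on the opposite strand, and the strand setting of the counting is not known.

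SLC22 is the family of organic cation, carnitine and organic anion carriers, and of its 6 members (of 23 SLC22 rows) 4 were called higher and none lower. Without SLC22A23, which reached the level through shHOTAIR alone, 3 of 5 rose, beside 11.5% of all genes and 13.8% of protein-coding genes that were higher. SLC22A3, the extraneuronal monoamine and organic cation carrier, had 13.6, 12.5 and 12.1 FPKM in the shHOTAIR libraries, against 6.06, 6.21 and 6.29 FPKM in the shCtrl libraries. These values lay well apart, with a ratio of means of 2.06 and a log2 change of 0.93 (SE 0.0640, limma adjusted p = 0.00101). SLC22A23, a member with no settled substrate, had 2.07, 2.08 and 2.05 FPKM in shHOTAIR, against 0.398, 0.405 and 0.360 FPKM in shCtrl. As a description, the ratio of means was 5.34, while the log2 difference was 1.15 with a pseudocount of 1, which shrinks the change of low genes, and 2.39 with a pseudocount of 0.01. Of its exon bases 15.6% are shared with PSMG4 on the opposite strand.

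SLC22A4 and SLC22A5 are neighbours on chromosome 5, 25546 bp apart, that carry ergothioneine and carnitine, and both rose. SLC22A4 had 6.52, 5.41 and 5.22 FPKM in shHOTAIR, against 3.09, 3.53 and 3.53 FPKM in shCtrl, a log2 change of 0.61 (limma adjusted p = 0.0120). SLC22A5 had 5.52, 5.93 and 4.86 FPKM in shHOTAIR, against 2.49, 3.16 and 3.59 FPKM in shCtrl, a log2 change of 0.66 (limma adjusted p = 0.0192). The groups stood apart for both genes, by the wider margin in SLC22A4. SLC22A5 lost its call when shHOTAIR 1, shHOTAIR 2 or shCtrl 2 was left out, with a limma adjusted p of up to 0.0712.

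The 3 falls of the class were vesicle and lysosome carriers. SLC17A5, sialin, which exports sialic acid from lysosomes, had 11.7, 12.3 and 12.8 FPKM in shHOTAIR, against 20.9, 19.6 and 17.9 FPKM in shCtrl. No library of one group reached the range of the other, and the log2 change was -0.62 (SE 0.0732, limma adjusted p = 0.00369). SLC17A9, the vesicular nucleotide carrier, averaged 22.1 ± 1.39 FPKM in shHOTAIR and 29.8 ± 1.35 FPKM in shCtrl (SD, n = 3 each), with a log2 change of -0.41 (limma adjusted p = 0.00969). SLC18B1, a vesicular polyamine carrier, averaged 7.13 ± 0.480 FPKM in shHOTAIR and 9.65 ± 0.236 FPKM in shCtrl (SD, n = 3 each), with a log2 change of -0.39 (limma adjusted p = 0.0120). Without shCtrl 1 or shCtrl 2 SLC18B1 missed the threshold, at a limma adjusted p of up to 0.0518. The liver-type organic anion carrier SLCO1B3 was among the higher members, at 111 ± 5.59 FPKM in shHOTAIR and 115 ± 12.0 FPKM in shCtrl (SD, n = 3 each). Its log2 difference was -0.05 (limma adjusted p = 0.732), and 54.49% of its exon bases are shared with AC011604.2, so its level is uncertain. SLCO5A1, which reached the level through shCtrl alone, averaged 0.739 ± 0.0304 FPKM in shHOTAIR and 1.52 ± 0.180 FPKM in shCtrl (SD, n = 3 each). Its log2 difference of -0.53 missed the threshold (limma adjusted p = 0.0535) and passed in 8 of the 16 alternatives it was fitted in. Among these were a pseudocount of 0.01 at -1.02 and the fits without shCtrl 1 or any one shHOTAIR library (limma adjusted p of 0.0286 to 0.0470), but a member so chosen had to be higher in shCtrl. Summed over the 16 members, the class stood at 281 ± 2.61 FPKM in shHOTAIR and 226 ± 11.6 FPKM in shCtrl (SD, n = 3 each). SLCO4A1 alone, at 72.0 FPKM in shHOTAIR and 11.5 FPKM in shCtrl, had a wider gap than the sum. The higher sum is thus that of 1 gene and not of the class.

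**Figure D3:**
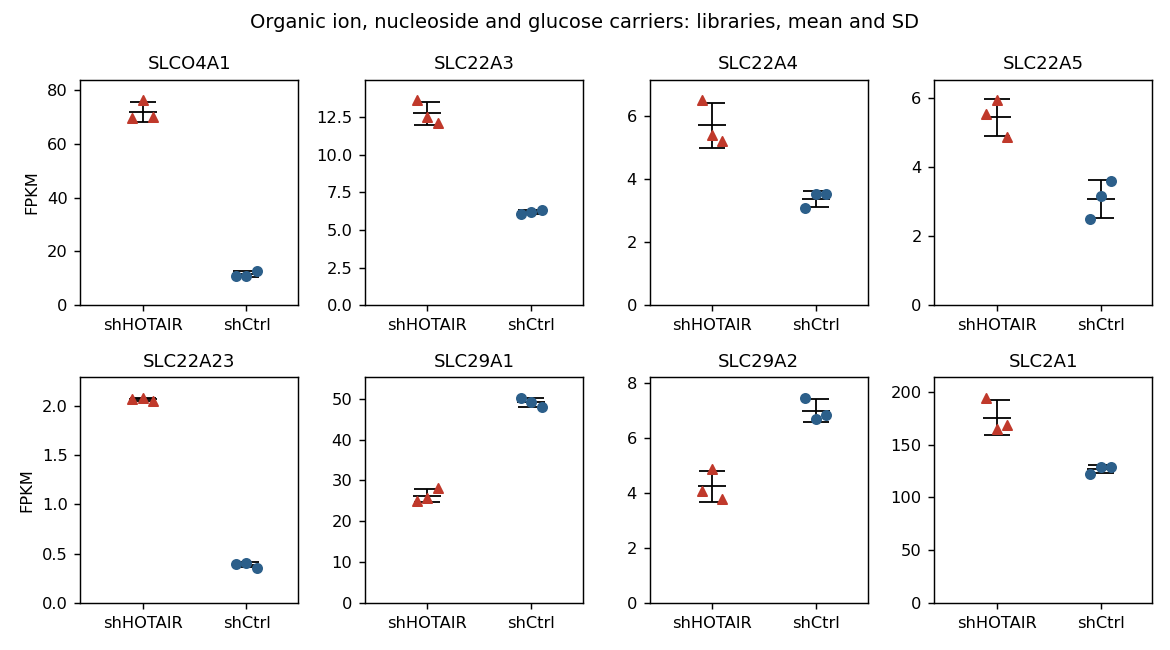
FPKM by library for 8 carriers of organic ions, nucleosides and glucose, on linear axes from 0, with shHOTAIR as red triangles, shCtrl as blue circles and bars for the mean and SD of 3 libraries. In SLCO4A1, SLC22A3, SLC22A4, SLC22A5, SLC22A23 and SLC2A1 every shHOTAIR library lies above every shCtrl library, and in SLC29A1 and SLC29A2 every one lies below.

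Among amino acid carriers, falls outnumbered rises, and the most abundant member of all fell. SLC38A2, also called SNAT2, which brings in small neutral amino acids with sodium, had 494, 428 and 495 FPKM in shHOTAIR, against 882, 726 and 723 FPKM in shCtrl. The lowest shCtrl library exceeded the highest shHOTAIR library by a wide margin, and the log2 change was -0.71 (SE 0.108, limma adjusted p = 0.00787). The summed level of the 26 members was 1091 ± 40.3 FPKM in shHOTAIR and 1481 ± 104 FPKM in shCtrl (SD, n = 3 each). Without SLC38A2 the sum was 619 ± 6.29 FPKM in shHOTAIR and 704 ± 14.6 FPKM in shCtrl, so this gene made up most of the gap.

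Other members of the SLC38 family did not move with it in a single direction. SLC38A1 (SNAT1), a glutamine carrier next to SLC38A2 on chromosome 12 at a distance of 88172 bp, had 91.3, 83.5 and 83.2 FPKM in shHOTAIR, against 106, 107 and 104 FPKM in shCtrl. The log2 change was -0.29 (limma adjusted p = 0.0153), and the call was lost without shCtrl 2 (limma adjusted p = 0.0505). SLC38A6, a little-studied member of the family on chromosome 14, had 41.6, 34.3 and 35.6 FPKM in shHOTAIR, against 23.3, 24.4 and 22.1 FPKM in shCtrl. It rose by 0.65 on the log2 scale (SE 0.0876, limma adjusted p = 0.00573), the largest rise among amino acid carriers. So of the 3 called SLC38 genes 2 fell and 1 rose.

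SLC3A2 (CD98, 4F2hc) is the heavy chain that pairs with SLC7 light chains and takes them to the plasma membrane. It had 113, 121 and 118 FPKM in shHOTAIR, against 168, 159 and 169 FPKM in shCtrl, with a log2 change of -0.49 (SE 0.0527, limma adjusted p = 0.00287). Its light chains did not follow it together. SLC7A5 (LAT1), the carrier of large neutral amino acids, had 29.9, 28.3 and 28.2 FPKM in shHOTAIR, against 20.5, 20.6 and 21.2 FPKM in shCtrl. It rose by 0.45 on the log2 scale (SE 0.0482, limma adjusted p = 0.00279), with tight values in both groups. SLC7A6 (y+LAT2), a light chain that exchanges cationic for neutral amino acids, had 34.1, 34.5 and 32.7 FPKM in shHOTAIR, against 47.7, 41.5 and 43.3 FPKM in shCtrl. Its log2 change was -0.38 (limma adjusted p = 0.0127), and 44.43% of its exon bases lie opposite SLC7A6OS, whose own log2 difference was -0.15 (limma adjusted p = 0.134).

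SLC7A11 (xCT), the light chain of the cystine and glutamate exchanger, had 37.4, 37.8 and 34.9 FPKM in shHOTAIR, against 41.7, 38.0 and 33.2 FPKM in shCtrl. These ranges overlapped, and the log2 difference was -0.03 (95% interval -0.26 to 0.20, limma adjusted p = 0.852). The heavy chain's mean exceeded that of each of these light chains in both derivatives, at 117 ± 4.28 FPKM in shHOTAIR and 165 ± 5.67 FPKM in shCtrl (SD, n = 3 each). The light chains SLC7A7 and SLC7A8 lay under the level of the rule.

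**Figure D4:**
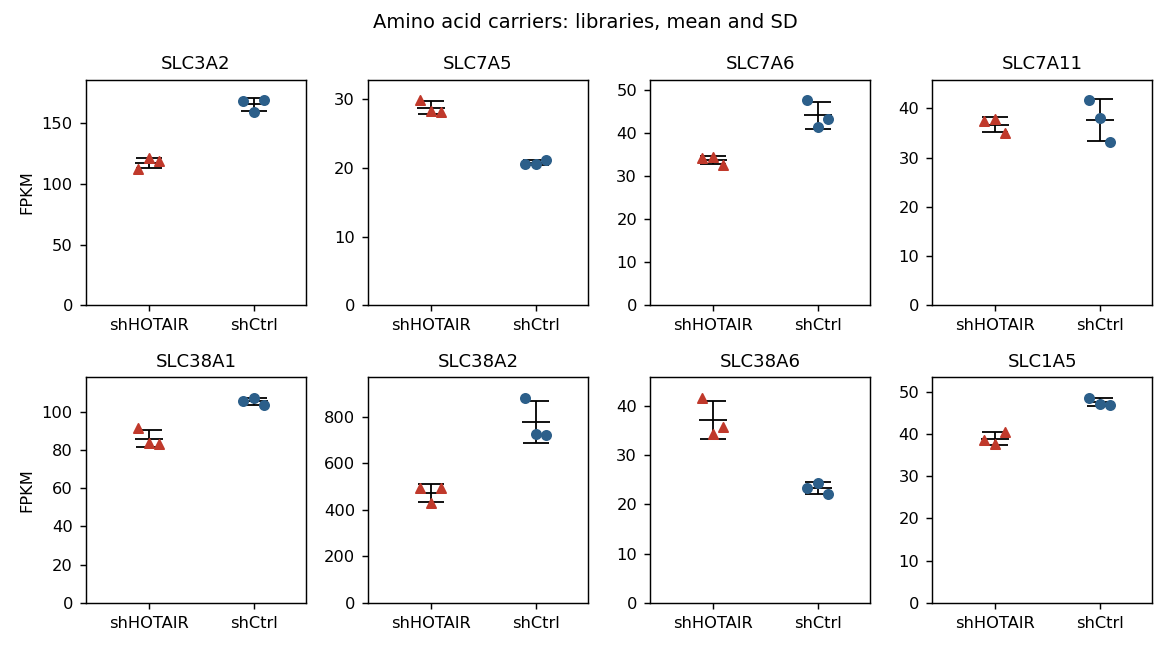
FPKM by library for 8 amino acid carriers, on linear axes from 0, with shHOTAIR as red triangles, shCtrl as blue circles and bars for the mean and SD of 3 libraries. The heavy chain SLC3A2 is lower in shHOTAIR while its light chain SLC7A5 is higher, and SLC7A11 overlaps between the groups.

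The glutamine exchanger SLC1A5 (ASCT2) had 38.7, 37.6 and 40.5 FPKM in shHOTAIR, against 48.6, 47.2 and 46.8 FPKM in shCtrl. It fell by 0.28 on the log2 scale (SE 0.0492, limma adjusted p = 0.0125), and 23.41% of its exon bases lie opposite AC008622.2. Its relative SLC1A4 (ASCT1) averaged 2.46 ± 0.199 FPKM in shHOTAIR and 2.60 ± 0.112 FPKM in shCtrl (SD, n = 3 each) and did not pass (limma adjusted p = 0.706). Of the other called members, the glutamate carrier SLC1A3 rose by 0.60 on the log2 scale (limma adjusted p = 0.0400). The cationic amino acid carrier SLC7A2 fell by 0.41 (limma adjusted p = 0.0380). The lysosomal proton-coupled carrier SLC36A1 fell by 0.24 (limma adjusted p = 0.0397). These 3 calls were fragile: SLC36A1 lost its call without any one library (limma adjusted p up to 0.125), and SLC1A3 and SLC7A2 without any one library other than shHOTAIR 1 (up to 0.128 and 0.120). The arginine carrier SLC7A1 at -0.29 and the leucine carrier SLC43A1 at -0.46 did not pass (limma adjusted p = 0.110 and 0.0926).

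Promoter windows were read for members from a RefSeq table of the assembly GRCh38.p14, which matched 125 of the 157 members, and the 250 bases before the gene start were searched on both strands for a GC box (GGGCGG), an E-box (CACGTG) and a core of the amino acid response element (TGATGNAA). The 4 windows printed here belong to called members whose window holds no base of a GENCODE 29 exon: SLC22A4 and SLC38A1 as partners of the adjacent pairs, SLC7A5 as the light chain that rose, and SLC35B2, the sulfate donor carrier that fell beside SLC29A1. They run 5′ to 3′ on the strand of the gene, at chr5:132294144-132294393 on the plus strand for SLC22A4 and on the minus strand at chr16:87869508-87869757 for SLC7A5, chr12:46266517-46266766 for SLC38A1 and chr6:44257891-44258140 for SLC35B2. The window of SLC38A1 lies inside the GENCODE 29 gene, which starts further upstream. Capitals mark GC boxes and E-boxes on either strand, and GC boxes may overlap each other.
SLC22A4: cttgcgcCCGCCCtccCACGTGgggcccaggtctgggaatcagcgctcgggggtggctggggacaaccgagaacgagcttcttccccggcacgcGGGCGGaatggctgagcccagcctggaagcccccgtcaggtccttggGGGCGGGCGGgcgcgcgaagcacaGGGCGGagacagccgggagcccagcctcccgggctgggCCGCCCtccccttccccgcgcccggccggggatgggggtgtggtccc
SLC7A5: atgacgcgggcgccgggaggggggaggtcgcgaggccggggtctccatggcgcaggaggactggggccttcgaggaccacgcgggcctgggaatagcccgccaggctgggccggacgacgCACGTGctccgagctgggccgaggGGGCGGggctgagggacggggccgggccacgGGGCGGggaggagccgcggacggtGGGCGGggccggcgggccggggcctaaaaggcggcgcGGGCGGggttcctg
SLC38A1: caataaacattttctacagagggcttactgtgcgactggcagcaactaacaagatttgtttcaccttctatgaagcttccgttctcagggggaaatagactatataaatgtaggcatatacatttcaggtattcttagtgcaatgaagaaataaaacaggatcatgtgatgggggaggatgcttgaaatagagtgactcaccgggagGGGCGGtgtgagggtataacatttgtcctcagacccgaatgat
SLC35B2: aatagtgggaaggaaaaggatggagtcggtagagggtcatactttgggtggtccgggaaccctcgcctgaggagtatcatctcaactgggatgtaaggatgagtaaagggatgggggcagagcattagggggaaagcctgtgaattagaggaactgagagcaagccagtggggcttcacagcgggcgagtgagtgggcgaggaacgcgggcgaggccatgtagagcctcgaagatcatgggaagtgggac

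The window of SLC22A4 held 6 GC boxes and 1 E-box, that of SLC7A5 4 GC boxes and 1 E-box, that of SLC38A1 1 GC box, and that of SLC35B2 none of the 3 motifs. Over all 125 matched members the GC box was found in 72.8% of windows, beside 68.2% of 9260 protein-coding genes tested and 42.3% of all 27305 promoters of the table. The E-box was found in 8.80% of member windows, beside 9.08% of protein-coding genes tested and 6.49% of all promoters. The amino acid response core was found in 1.60% of member windows, beside 1.37% of protein-coding genes tested and 3.19% of all promoters. Among matched members that rose 11 of 15 held a GC box and 2 of 15 an E-box, and among those that fell 14 of 18 held a GC box and 1 of 18 an E-box. A match of letters is a description of the window and not a bound site.

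Both members that are equilibrative nucleoside carriers of the plasma membrane fell. SLC29A1 (ENT1, chr6:44219505-44234151, plus strand, GRCh38), the main entry route of nucleosides and nucleoside drugs, had 24.97, 25.7 and 28.2 FPKM in shHOTAIR, against 50.2, 49.3 and 48.0 FPKM in shCtrl. The ratio of means was 0.535 and the log2 change -0.88 (SE 0.0607, limma adjusted p = 0.00103), the largest fall among called members. Lower ratios of means, 0.454 and 0.486, were those of SLC19A3 and SLCO5A1, which did not pass and lay under 1 FPKM in shHOTAIR. SLC29A2 (ENT2) had 4.08, 4.87 and 3.78 FPKM in shHOTAIR, against 7.45, 6.67 and 6.84 FPKM in shCtrl, with a log2 change of -0.61 (limma adjusted p = 0.0105). Its exons share 10.26% of their bases with AP001107.9 on the opposite strand. The lysosomal SLC29A3 (ENT3) averaged 1.31 ± 0.136 FPKM in shHOTAIR and 1.37 ± 0.0130 FPKM in shCtrl (SD, n = 3 each) and did not pass (limma adjusted p = 0.869). Summed over the 3 members, nucleoside carriers stood at 31.8 ± 1.34 FPKM in shHOTAIR and 57.5 ± 1.43 FPKM in shCtrl. Their relative SLC29A4 lay under the level of the rule, with overlapping groups. It had 0.614, 0.313 and 0.250 FPKM in shHOTAIR, against 0.336, 0.645 and 0.661 FPKM in shCtrl.

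Sugar carriers leaned upward, with a class median of 0.27 against -0.03 for all genes. SLC2A1 (GLUT1), the basal glucose carrier, had 194, 164 and 168 FPKM in shHOTAIR, against 122, 129 and 129 FPKM in shCtrl. It rose by 0.47 on the log2 scale (SE 0.0770, limma adjusted p = 0.0105). SLC2A3 (GLUT3) averaged 29.9 ± 3.39 FPKM in shHOTAIR and 24.3 ± 3.10 FPKM in shCtrl (SD, n = 3 each), with overlapping ranges (log2 difference 0.29, limma adjusted p = 0.149). SLC37A2, a sugar phosphate exchanger of the endoplasmic reticulum, had 26.1, 28.3 and 31.7 FPKM in shHOTAIR, against 18.4, 16.3 and 15.2 FPKM in shCtrl. Its groups stood clearly apart, with a log2 change of 0.75 (limma adjusted p = 0.00551). SLC5A3, the sodium-coupled myo-inositol carrier, had 11.2, 9.93 and 8.96 FPKM in shHOTAIR, against 5.92, 6.52 and 5.70 FPKM in shCtrl. It rose by 0.64 on the log2 scale (limma adjusted p = 0.00804).

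The remaining sugar calls were smaller. SLC37A4, the glucose 6-phosphate carrier of the endoplasmic reticulum, averaged 36.2 ± 1.85 FPKM in shHOTAIR and 29.7 ± 0.281 FPKM in shCtrl (SD, n = 3 each) and rose by 0.27 on the log2 scale (limma adjusted p = 0.0178). SLC50A1, the human relative of the plant SWEET carriers, averaged 51.3 ± 2.88 FPKM in shHOTAIR and 63.4 ± 3.04 FPKM in shCtrl and fell by 0.30 (limma adjusted p = 0.0241). Neither call held in every leave-one-out fit. SLC37A4 lost its call without shHOTAIR 3 or any one shCtrl library (limma adjusted p up to 0.0586), and SLC50A1 without shHOTAIR 2, shHOTAIR 3, shCtrl 1 or shCtrl 3 (up to 0.0680). Summed over 13 members, the class stood at 421 ± 15.0 FPKM in shHOTAIR and 362 ± 1.37 FPKM in shCtrl. SLC2A1, the most abundant of them, made up most of this gap.

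All called carriers of vitamins, choline and heme rose. SLC44A1 (CTL1), the widespread choline carrier, had 15.6, 14.8 and 15.5 FPKM in shHOTAIR, against 10.2, 9.76 and 9.64 FPKM in shCtrl, with a log2 change of 0.58 (SE 0.0530, limma adjusted p = 0.00189). SLC44A5, a choline carrier-like relative, averaged 6.71 ± 0.702 FPKM in shHOTAIR and 4.09 ± 0.209 FPKM in shCtrl (SD, n = 3 each), with a log2 change of 0.60 (limma adjusted p = 0.00847). SLC46A3, a lysosomal carrier, had 5.07, 4.93 and 4.71 FPKM in shHOTAIR, against 2.49, 2.83 and 2.56 FPKM in shCtrl, with a log2 change of 0.70 (limma adjusted p = 0.00379). All 3 had tight groups with no overlap. SLC23A2, the sodium-dependent vitamin C carrier, averaged 11.0 ± 0.248 FPKM in shHOTAIR and 7.96 ± 0.580 FPKM in shCtrl (SD, n = 3 each), a log2 change of 0.42 (limma adjusted p = 0.0101). The most abundant choline carrier-like gene, SLC44A2, went the other way in its means, at 124 ± 7.21 FPKM in shHOTAIR and 139 ± 19.8 FPKM in shCtrl, with overlapping ranges (log2 difference -0.16, limma adjusted p = 0.366). The riboflavin carrier SLC52A2 did not pass at -0.39 (limma adjusted p = 0.0680). Of its exon bases 34.74% lie opposite FBXL6, so its level is uncertain.

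Among the 20 carriers of bicarbonate, chloride, sodium, potassium and protons, the families that move bicarbonate and chloride gave no call. None of the 6 members of the SLC4 family and none of the 5 members of the SLC12 family passed in limma, with 2 and 1 of them at an unadjusted p under 0.05. Substrates were assigned here by family, and single members can differ. The anion exchanger SLC4A2 had 23.1, 18.8 and 17.0 FPKM in shHOTAIR, against 25.3, 25.9 and 26.2 FPKM in shCtrl (log2 difference -0.39, limma adjusted p = 0.0584), and it passed without shHOTAIR 1 (0.0130). The sodium bicarbonate cotransporter SLC4A4 stood at 0.51 (limma adjusted p = 0.0543) and passed without shCtrl 2 (0.0380). SLC12A2 (NKCC1) averaged 15.5 ± 1.62 FPKM in shHOTAIR and 15.6 ± 1.24 FPKM in shCtrl, a log2 difference of -0.01 (95% interval -0.25 to 0.23, limma adjusted p = 0.940).

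The SLC35 family, whose best known members carry nucleotide sugars into the endoplasmic reticulum and Golgi, was the largest with 24 members, of which 2 rose and 3 fell. SLC35B2, which carries the sulfate donor PAPS into the Golgi, had 24.4, 23.2 and 22.7 FPKM in shHOTAIR, against 32.0, 33.1 and 35.6 FPKM in shCtrl, a log2 change of -0.50 (limma adjusted p = 0.00410). SLC35G1, of a less studied branch, averaged 7.47 ± 0.248 FPKM in shHOTAIR and 11.2 ± 0.205 FPKM in shCtrl (SD, n = 3 each), a log2 change of -0.52 (limma adjusted p = 0.00262). SLC35C1, the GDP-fucose carrier, fell by 0.43 (limma adjusted p = 0.0322). SLC35A5 averaged 46.6 ± 3.99 FPKM in shHOTAIR and 31.1 ± 3.78 FPKM in shCtrl and rose by 0.57 on the log2 scale (limma adjusted p = 0.0156), and SLC35D1 rose by 0.36 (limma adjusted p = 0.0291). Losses with single libraries were frequent here: SLC35C1 lost its call without any one library (limma adjusted p up to 0.0883), SLC35D1 without any one other than shCtrl 2 (up to 0.101), and SLC35A5 without shHOTAIR 3, shCtrl 1 or shCtrl 3 (up to 0.0636). The CMP-sialic acid carrier SLC35A1 averaged 23.4 ± 1.18 FPKM in shHOTAIR and 23.3 ± 0.296 FPKM in shCtrl, a log2 difference with a 95% interval of -0.13 to 0.14 (limma adjusted p = 0.974).

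Of the 23 metal carriers 5 were called, a share of 21.7% beside 23.8% of all genes and 28.7% of protein-coding genes. Their median log2 change was -0.01. In the zinc importers of the SLC39 family 2 of 11 members fell: SLC39A6 (ZIP6) averaged 19.5 ± 0.814 FPKM in shHOTAIR and 25.1 ± 1.31 FPKM in shCtrl (SD, n = 3 each), a log2 change of -0.35 (limma adjusted p = 0.0129). SLC39A14 (ZIP14) averaged 50.6 ± 2.07 FPKM in shHOTAIR and 58.4 ± 0.105 FPKM in shCtrl, a log2 change of -0.20 (limma adjusted p = 0.0336). SLC39A10 (ZIP10) did not pass at 37.2 ± 5.65 FPKM in shHOTAIR and 30.4 ± 3.05 FPKM in shCtrl (limma adjusted p = 0.175). The zinc exporter SLC30A1 (ZnT1) had a mean of 9.66 ± 1.04 FPKM in shHOTAIR and 6.61 ± 0.948 FPKM in shCtrl and rose by 0.49 on the log2 scale (limma adjusted p = 0.0376). Of the 3 SLC41 members, which carry magnesium, SLC41A1 fell by 0.27 (limma adjusted p = 0.0199) and SLC41A2 by 0.57 (0.0466). None of these 5 calls held in all leave-one-out fits. SLC30A1 and SLC41A2 lost theirs without any one library (limma adjusted p up to 0.109 and 0.142), SLC39A14 without any one other than shHOTAIR 1 (up to 0.0797), SLC41A1 without shHOTAIR 2, shHOTAIR 3, shCtrl 1 or shCtrl 3 (up to 0.0671), and SLC39A6 without shHOTAIR 2 or shCtrl 3 (up to 0.0534).

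Carriers of phosphate, lipids and carboxylates gave few calls. The phosphate carrier SLC20A2 (PiT2) had 22.1, 15.6 and 14.3 FPKM in shHOTAIR, against 28.9, 27.2 and 25.4 FPKM in shCtrl, a log2 change of -0.64 (limma adjusted p = 0.0418). The call was lost without any one library other than shHOTAIR 1 (up to 0.136), and shHOTAIR 1 was the library nearest to shCtrl. Its more abundant relative SLC20A1 (PiT1) averaged 159 ± 3.80 FPKM in shHOTAIR and 142 ± 8.70 FPKM in shCtrl (SD, n = 3 each) and did not pass (log2 difference 0.16, limma adjusted p = 0.117). SLC26A6 at 0.08 and SLC26A1 at -0.37 did not pass either (limma adjusted p = 0.418 and 0.431). The fatty acid carrier SLC27A4 fell by 0.24 (limma adjusted p = 0.0457), a call lost without any one library (up to 0.133), while SLC27A1, SLC27A3 and SLC33A1 did not pass. The lactate exporter SLC16A3 (MCT4) had 113, 105 and 99.4 FPKM in shHOTAIR, against 80.4, 93.8 and 91.2 FPKM in shCtrl. These groups did not overlap, and the log2 difference of 0.26 (95% interval 0.05 to 0.46) missed the threshold at a limma adjusted p of 0.0750. SLC16A7 (MCT2) averaged 24.5 ± 2.42 FPKM in shHOTAIR and 24.6 ± 1.14 FPKM in shCtrl (limma adjusted p = 0.959). SLC16A5 stood at -0.19 (limma adjusted p = 0.151). SLC16A1 (MCT1) lay under the level of the rule, at 1.22, 0.371 and 0.617 FPKM in shHOTAIR and 0.382, 0.832 and 0.660 FPKM in shCtrl. SLC43A3, a purine base carrier, averaged 114 ± 4.01 FPKM in shHOTAIR and 116 ± 1.14 FPKM in shCtrl (log2 difference -0.02, limma adjusted p = 0.777), with 29.86% of its exon bases shared with AP000781.2.

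Of the 5 genes with an SLC symbol that are not carriers, 2 fell, beside 12.4% of all genes and 14.9% of protein-coding genes tested. SLC9A3R1 (NHERF1), a scaffold that tethers exchangers to the cytoskeleton, averaged 33.9 ± 4.08 FPKM in shHOTAIR and 52.1 ± 5.83 FPKM in shCtrl (SD, n = 3 each), a log2 change of -0.61 (limma adjusted p = 0.0202). SLC4A1AP, named for binding an anion exchanger, averaged 29.8 ± 1.15 FPKM in shHOTAIR and 36.8 ± 2.20 FPKM in shCtrl, a log2 change of -0.30 (limma adjusted p = 0.0237). SLC9A3R1 lost its call without shHOTAIR 2, shCtrl 1 or shCtrl 3 (limma adjusted p up to 0.0779), and SLC4A1AP without any one library other than shCtrl 2 (up to 0.0614). The scaffold SLC9A3R2 (NHERF2) had a log2 difference of 0.43 (limma adjusted p = 0.209) and passed only without shHOTAIR 1 (0.66, limma adjusted p = 0.0153). SLC2A4RG, at 0.21, did not pass (limma adjusted p = 0.106).

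Position along the chromosome was examined next, since neighbouring genes can share a difference between derivatives. Of 28 pairs of members next to each other within 1 Mb, 4 had both genes called, and in 3 of these both moved the same way. These were SLC22A4 with SLC22A5, SLC38A1 with SLC38A2, and SLC29A1 with SLC35B2, which lie 19945 bp apart on chromosome 6. The remaining pair, SLCO4A1 and SLC17A9 on chromosome 20 at 266862 bp, moved in opposite directions. Taken singly, 28.7% of members and 28.7% of protein-coding genes tested were called. Neighbouring pairs were not counted over all genes, so the pair counts are a description and do not show that neighbours move together. The level of each gene was then set against the median of its 50 nearest protein-coding neighbours in each library and the fit repeated, an alternative that leaves the change of a gene relative to its surroundings. Of the members 29 passed in this fit, 18.5% of them beside 15.6% of all genes fitted. Of the 45 calls 24 were kept and 21 lost, and all 45 kept their sign.

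Much of the change in SLC35B2 and SLC35G1 was also seen in their neighbours, at -0.41 and -0.42, which left -0.09 and -0.11 (limma adjusted p = 0.488 and 0.245). For SLC23A2 the neighbours shifted by 0.39 and 0.03 was left (limma adjusted p = 0.862). SLC5A3 was left with 0.30 (0.110), SLC2A1 with 0.31 (0.0802), SLC1A5 with -0.14 (0.192), SLC7A6 with -0.21 (0.164) and SLC35A5 with 0.22 (0.171), none of which passed. SLC29A1 and SLC3A2 kept their calls at smaller sizes, -0.43 and -0.26 (limma adjusted p = 0.00625 and 0.0209), with neighbours at -0.45 and -0.23. In contrast, the neighbours of SLCO4A1, SLC22A3, SLC38A2, SLC37A2, SLC46A3 and SLC17A5 shifted by at most 0.14 in size, and these genes were left with 2.54, 1.07, -0.74, 0.79, 0.76 and -0.57 (limma adjusted p of at most 0.0126). Members that missed the threshold at first and passed it relative to their neighbours were SLC7A11 at -0.43 (limma adjusted p = 0.0349), SLC4A11 at -0.62 (0.0151), SLC10A3 at -0.41 (0.0129), whose log2 difference was 0.21 before, and SLC2A13 at 0.34 (0.0477). SLC19A3 did so too at -0.89, but it reached the level through shCtrl alone. What underlies the shared shifts of neighbours was not tested.

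**Figure D5:**
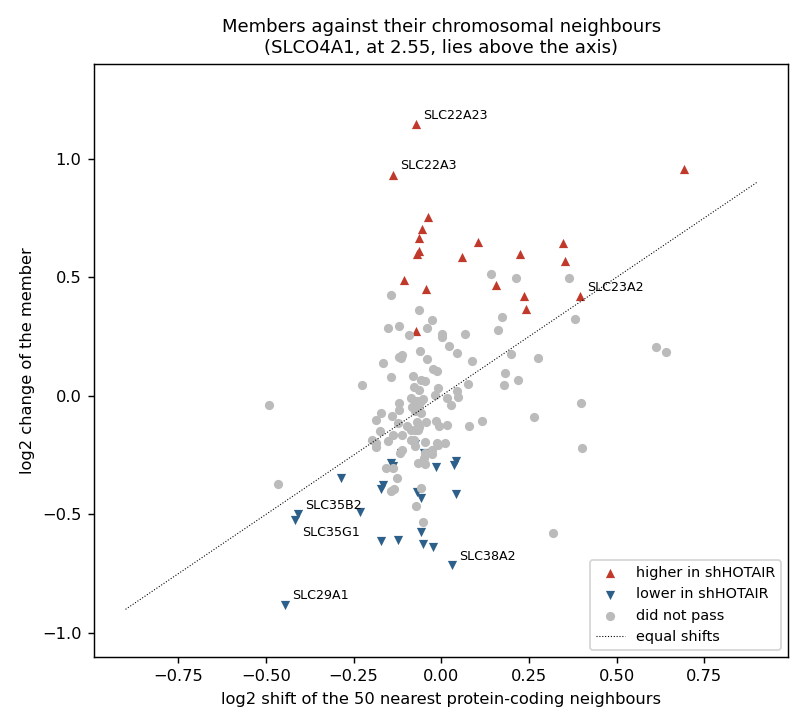
Log2 change of each member, shHOTAIR minus shCtrl, against the shift of its 50 nearest protein-coding neighbours, with called members as triangles and the diagonal marking equal values. SLC35B2 and SLC35G1 lie near the diagonal with neighbours at -0.41 and -0.42, while SLCO4A1, above the axis, has neighbours at 0.01.

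Of the 45 calls 11 were kept in all 17 alternatives: SLCO4A1, SLC22A3, SLC37A2, SLC38A6, SLC44A1, SLC44A5 and SLC7A5 among the rises, and SLC29A1, SLC38A2, SLC17A5 and SLC3A2 among the falls. SLC46A3 and SLC22A23 were under 5 FPKM and kept theirs in the other 16, where that of SLC22A23 is set by its choice as a member. Leaving out each library in turn, 24 of the 45 calls were kept in all 6 fits.

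Genes that work with these carriers were read from 3 lists. Their counts of calls are a description, to be read beside 23.8% of all genes tested and 28.7% of protein-coding genes tested that were called. Among 25 carriers without an SLC symbol 23 were tested, of which 2 rose and 5 fell, with a median log2 change of 0.03. SPNS2, the exporter of sphingosine 1-phosphate, had 2.79, 3.46 and 3.35 FPKM in shHOTAIR, against 15.9, 13.6 and 15.2 FPKM in shCtrl, a log2 change of -1.92 (limma adjusted p = 0.000473). NPC1, the lysosomal cholesterol exporter, fell by 0.74 (0.00679) and PQLC3 by 0.78 (0.00410). Of 14 tested partners and regulators (15 listed) 2 rose and 3 fell, with a median of -0.03. The kinase SGK1, which raises the activity of many carriers, averaged 31.9 ± 3.02 FPKM in shHOTAIR and 59.3 ± 11.2 FPKM in shCtrl (SD, n = 3 each), a log2 change of -0.86 (limma adjusted p = 0.0116, and 0.0522 without shHOTAIR 2). The kinase OXSR1, an activator of SLC12 cotransporters, fell by 0.42 (0.00926), and TSC22D3, a partner of SGK1 in sodium transport, rose by 0.65 (0.00722) but was left with 0.02 relative to its neighbours (0.940). Of 14 tested metal buffering genes and pumps (17 listed) 2 rose and 1 fell, with a median of -0.02: the transferrin receptor TFRC rose by 0.52 (0.00326), the iron regulator ACO1 by 0.19 (0.0486), and the copper chaperone CCS fell by 0.41 (0.0155). ACO1 lost its call without any one library other than shCtrl 2 (limma adjusted p up to 0.114), and CCS without shHOTAIR 1, shHOTAIR 3, shCtrl 1 or shCtrl 3 (up to 0.0595).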

How the data were processed

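Per the labels' protocols, poly(A) RNA was isolated with a NEBNext module and libraries were built with the PrepX mRNA kit. The build GRCh38 and the programs DESeq and TopHat2 2.0.13 are named, with no role, per the submitters' processing notes. The authors deposited FPKM values per gene and library. Which program, annotation and strand setting made them is not stated. Of 65198 rows 56807 matched GENCODE 29 by gene ID, which gave symbols, types, positions and exon overlaps. No column was left unused, and replicates were kept apart.

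Values were analysed as log2(FPKM + 1) with no further scaling. The 15934 genes that reached a mean of 1 FPKM were fitted with limma 3.58.1 in R 4.3.3 (moderated test with an intensity trend, two-sided, no replicate block, Benjamini-Hochberg adjustment over all genes, threshold 0.05), and the SLC rows were read from that fit. On simulated data for the same 15934 genes, 200 of them changed, it recovered 76 of 100 genes changed by 1 on the log2 scale and 27 of 100 changed by 0.5, with 7 false calls. The changed genes were drawn from above a higher level than the 1 FPKM of the test, so recovery near that level is not known. Far more genes, 3797, were called in the real data, so recovery there can differ. Error values are SDs of FPKM over 3 libraries. The design text calls the libraries independent biological repeats, all of 1 derivative per group, so p-values measure the spread between repeats of that derivative. Absolute depth is not known, and no counting interval was made. Relative depth was read as the commonest ratio of low FPKM values to those of shCtrl 1, shared by 477 to 596 of 2184 to 2352 low genes.

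The members, the substrate classes and the 3 companion lists (carriers without an SLC symbol, partners and regulators of carriers, and metal buffering with ATP-driven pumps) were chosen with earlier results of these data known. Named were the 10 largest rises and falls among called members with separate groups, the 3 members with the lowest p among rises and among falls, the 6 highest levels, up to 4 members per class by p, the 3 members nearest each side of the level, a list of 20 well-known carriers, and up to 3 genes per companion list. The other called members, the genes gained relative to neighbours, SLCO1B3, SLCO5A1, SLC7A1, SLC43A1, SLC52A2, SLC7A6OS, the light chains and the genes under the level were added after their values were seen, as was the move of SLC7A6OS to the genes that are not carriers. A few named members are left out of the text. Alternatives were pseudocounts of 0.1 and 0.01, no filter, a minimum of 5 FPKM, quantile normalization, scaling to the median of ratios, robust eBayes, no trend in limma, a replicate block, protein-coding genes alone, centring on 50 neighbours and each library left out. Promoters came from RefSeq, GRCh38.p14. The other steps ran in Python 3.11.15 (matplotlib 3.10.9, scipy 1.17.1, pandas 2.3.3, numpy 2.4.6).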

Additional observations from a re-analysis of the deposited data

How the results depend on the processing

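The called members numbered 45 (21 higher, 24 lower) and stayed within 36 to 59 under other pseudocounts, filters, scalings, limma settings and the protein-coding fit. The share of all genes fitted that were called moved too. It was 8.89% with no filter, where 36 members were called, and 36.0% in the protein-coding fit, where 59 were. Relative to neighbours 29 were called, 14 of them lower, and all genes called numbered 2394. Leaving out 1 library gave 27 to 40 members, 15 to 19 higher and 12 to 21 lower, with 2470 to 3159 for all genes called, and the lowest of these counts for members and for all genes came without shCtrl 3. No called member changed sign under any alternative, while 45 members that did not pass did so under at least 1. Those named in the text stood as follows. Under rescaling by the median of ratios SLC12A2 stood at 0.012, SLC16A7 at 0.0176 and SLC43A3 at 0.0050. Under quantile normalization SLC16A7 stood at 0.0141, SLC43A3 at 0.0004 and SLC7A11 at 0.0028. Relative to neighbours SLC12A2 stood at 0.0382, SLC1A4 at 0.0625, SLC26A1 at 0.0936, SLC27A1 at 0.012, SLC29A3 at 0.45, SLC43A3 at 0.0490, SLC7A6OS at 0.0255, SLCO1B3 at 0.0357 and SLC10A3 at -0.4082. With single libraries left out the ranges were -0.0901 to 0.0460 for SLC12A2, -0.0838 to 0.0413 for SLC16A7, -0.2401 to 0.0437 for SLC27A3, -0.0658 to 0.0124 for SLC29A3, -0.0281 to 0.0412 for SLC35A1, -0.1196 to 0.0283 for SLCO1B3 and -0.1135 to 0.0460 for SLC7A11. The causes were not tested. The replicate numbers did not pair the libraries: same-numbered libraries deviated together with correlations of -0.022, 0.007 and -0.031. With the replicate block 18 members were called, 12 higher and 6 lower, with 1740 for all genes called. Relative depth alone is known, so small changes of genes near 1 FPKM could be missed.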

Other observations

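Some SLC genes under the level of the rule were apart between the derivatives in every library, and they were picked out after their values were seen. SLC52A3, a riboflavin carrier, had 1.72, 1.43 and 1.51 FPKM in shHOTAIR, against 0.0924, 0.0769 and 0.134 FPKM in shCtrl. SLC5A4, a glucose sensor of the sodium glucose carrier family, had 1.41, 1.55 and 1.62 FPKM in shHOTAIR, against 0.0765, 0.0155 and 0.0642 FPKM in shCtrl. SLC19A1, the reduced folate carrier, had 0.800, 0.455 and 0.636 FPKM in shHOTAIR, against 0.173, 0.101 and 0.214 FPKM in shCtrl. In all 3 genes every shHOTAIR library exceeded every shCtrl library. Other rows were apart in the opposite direction. SLC16A12 had 0.250 to 0.326 FPKM in shHOTAIR and 0.879 to 1.26 FPKM in shCtrl. SLC15A3 had 0.00572 to 0.301 FPKM in shHOTAIR and 0.694 to 1.54 FPKM in shCtrl. Rows apart were not counted among the 181 under the level, and 43.0% of all genes tested did not overlap. The light chain SLC7A8 (LAT2) was listed at 0 in all 3 shHOTAIR libraries, against 0.0278, 0.0966 and 0.176 FPKM in shCtrl. These genes lay under the level required for the test, and no test is given for them.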
